A study of Mus musculus with 22 samples.

Results

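Liver RNA of 3 female and 3 male wild-type mice was compared over the autosomal genes, with 1 expression array per animal. These 6 arrays were chosen by their labels from the 22 arrays of the series, as wild type, on the high-fat, high-sucrose diet (HFHS) and in Batch1, and the first array was taken for the male with 2 arrays. All 6 animals were C57BL/6 mice, wild-type littermates of Nat1/2 knockouts, housed singly and given HFHS (45% of energy from fat) for 12 weeks, starting when they were 12 weeks old. Another reading of the feeding protocol puts a chow period first, for both sexes alike. The 3 female and 3 male Nat1/2 knockout mice of the same strain, diet and batch, which lack the arylamine N-acetyltransferases NAT1 and NAT2, were read beside them as other animals. Chow was given to males only, so the sexes were not compared on chow. Sample labels number the animals of a group as biological replicates, and n = 3 here, because 1 of the 4 male arrays of each HFHS group is titled as a technical repeat.

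The liver of the mouse differs between the sexes mainly through the pattern of growth hormone release, which is pulsed in males and nearly continuous in females. Pulses activate the transcription factor STAT5 and favour male-type genes, while repressors such as CUX2 in females and BCL6 in males hold back the genes of the other sex. The genes that respond are largely enzymes of steroid, bile acid and drug metabolism, membrane transporters, and proteins that hepatocytes secrete into blood or urine.

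Values are log2 signals made by the robust multi-array average (RMA). They compare animals for 1 probe set and never 1 gene with another. Over the whole table the median signal was 4.57, and a value under it is called low here. A gene was called when the limma p, adjusted over all 13871 genes tested, lay under 0.05. A difference is female minus male, with a standard error (SE) that limma pools over all 6 groups of the series. Sex labels matched the arrays: Xist lay between 10.38 and 10.64 in the females and between 3.47 and 4.28 in the males of both genotypes, and the Y-linked Uty between 2.80 and 3.46 in females and 6.90 and 7.37 in males.

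Hepatocyte markers were high in every animal, with mean signals over 11 genes of 11.65 to 11.83 in females and 11.56 to 11.73 in males. Of the markers of macrophages, lymphocytes, neutrophils, endothelium and cholangiocytes, 0 were called, and of 13 tested stellate and fibroblast markers 1 was called (Ecm1, 0.79 ± 0.19 SE, adjusted p = 0.0468 by limma). Only 11 of 18 lymphocyte, 3 of 10 neutrophil and 3 of 10 cholangiocyte markers on the array were tested. In each of these lists 7 markers were low in all 6 animals. The mean over 5 erythroid markers lay between 3.92 and 4.07 in the wild-type females and between 4.36 and 5.02 in the males, with Hbb-bs, Epb42 and Slc4a1 low in all 6 animals. The other 2 were Hbb-bt (−1.15 ± 0.63 SE, adjusted p = 0.402) and the X-linked haem synthesis gene Alas2, which was called higher in males, at 7.69 to 8.04 against 5.74 to 6.15 in females (−1.97 ± 0.30 SE, adjusted p = 8.53e-04). Their part in the results was not tested. Female WT 2 stood apart from the other females. Its score on the third principal component (7.55% of the variance) was −21.2 against 7.52 and 10.3, and its array median was 4.47 against 4.55 and 4.56. Without it the count of called genes fell from 184 to 63, of which 62 were among the 184. In whole tissue, fewer cells of a type and less RNA per cell cannot be told apart.

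Of 13458 autosomal genes tested, 184 were called (1.37%), with 104 higher in females (0.773%) and 80 higher in males (0.594%). The difference reached 2-fold in 36 of the female-higher and 44 of the male-higher genes, 4-fold in 14 and 17, and 8-fold in 10 and 7. Median sizes were 0.83 and 1.08 on the log2 scale, while the median difference over all autosomal genes tested was 0.02. The 3 females and 3 males did not overlap for 104 of the 104 and 79 of the 80 called genes, against 1500 female-higher and 1073 male-higher genes without overlap among all tested. For 34 called genes the group with less signal had a low mean, so the fold was measured against a weak signal, and for 2 both means were low. The number of called genes also depended on the single array: 55 of the 184 stayed called in each of 6 refits that left out 1 wild-type animal.

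**Figure D1:**
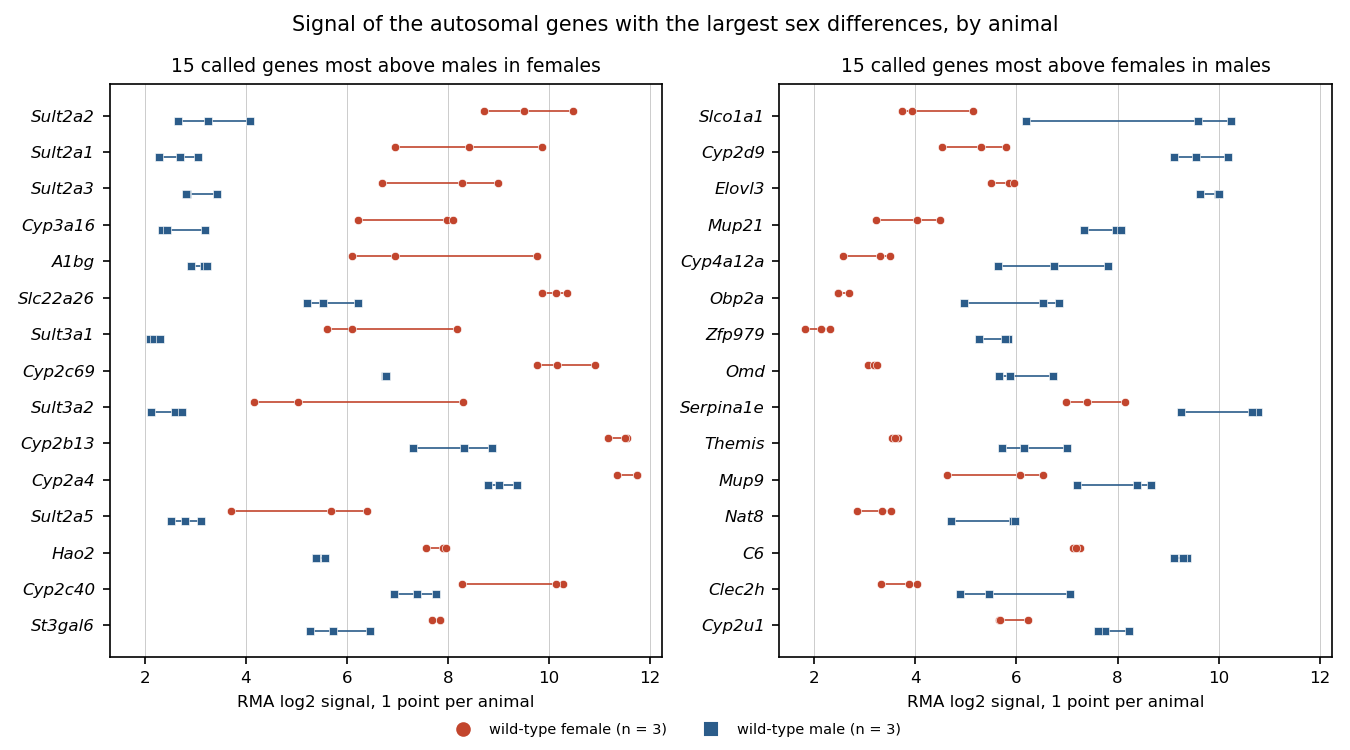
RMA log2 signal (x axis) of the 15 called genes most above males in females (left) and the 15 most above females in males (right). Each circle is a wild-type female and each square a wild-type male, lines span the 3 animals of a sex, and no pair of spans overlaps. Sult2a2 separates by 6.24 on average, and the male Slco1a1 values run from 6.20 to 10.25.

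To show the DNA next to the genes that differ most, proximal promoters are given for the pair of named genes with the largest difference in each direction that had an entry in the RefSeq promoter table (GRCm38.p6). Each runs 5′ to 3′ on the strand of the gene, with 250 bases before the annotated start and 50 from it. Sult2a3 lies at chr7:14122999-14123298, minus strand, and Cyp3a16 at chr5:145469674-145469973, minus strand, both higher in females. Slco1a1 lies at chr6:141946913-141947212, minus strand, and Cyp2d9 at chr15:82452127-82452426, plus strand, both higher in males. Capitals mark TATAA on the strand of the gene where its first base is 45 to 20 bases before the start, and the HNF4-type motif CAAAGTCCA on either strand.
Sult2a3: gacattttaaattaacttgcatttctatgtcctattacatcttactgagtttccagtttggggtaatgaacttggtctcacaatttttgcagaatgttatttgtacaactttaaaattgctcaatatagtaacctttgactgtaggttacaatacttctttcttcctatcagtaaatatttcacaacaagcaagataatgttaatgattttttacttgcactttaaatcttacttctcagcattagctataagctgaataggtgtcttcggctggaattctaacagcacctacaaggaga
Cyp3a16: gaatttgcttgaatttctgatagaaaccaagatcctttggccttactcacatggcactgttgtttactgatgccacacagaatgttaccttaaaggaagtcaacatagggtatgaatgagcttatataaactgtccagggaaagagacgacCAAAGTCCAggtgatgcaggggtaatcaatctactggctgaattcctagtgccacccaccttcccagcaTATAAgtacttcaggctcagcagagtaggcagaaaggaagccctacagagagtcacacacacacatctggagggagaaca
Slco1a1: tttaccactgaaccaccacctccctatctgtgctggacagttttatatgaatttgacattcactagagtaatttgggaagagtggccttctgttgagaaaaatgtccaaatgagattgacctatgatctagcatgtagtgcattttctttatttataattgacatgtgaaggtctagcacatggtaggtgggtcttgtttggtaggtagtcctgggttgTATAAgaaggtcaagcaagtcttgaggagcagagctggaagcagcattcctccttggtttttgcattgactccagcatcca
Cyp2d9: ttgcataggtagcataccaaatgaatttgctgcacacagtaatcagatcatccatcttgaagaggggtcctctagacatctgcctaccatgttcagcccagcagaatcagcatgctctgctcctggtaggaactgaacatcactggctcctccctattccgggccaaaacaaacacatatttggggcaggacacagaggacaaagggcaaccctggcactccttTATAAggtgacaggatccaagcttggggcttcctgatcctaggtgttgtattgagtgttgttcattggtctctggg

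TATAA began 30 bases before the start in Cyp3a16, 31 in Slco1a1 and 26 in Cyp2d9, and the Sult2a3 window had no match in that interval. It was found in 3.89% of all 32851 promoter windows of the table, in 2.69% of the 13035 windows of tested autosomal genes, in 9 of 105 windows of 78 female-higher genes and in 7 of 82 windows of 63 male-higher genes. CAAAGTCCA began 99 bases before the start in Cyp3a16 and was present in 0.475% of all windows, in 0.552% of those of tested autosomal genes, in 3 of the 105 and in 1 of the 82. The palindromic STAT-type motif TTCNNNGAA was in none of the 4 windows printed. It occurred in 8.30% of all windows, 6.74% of those of tested autosomal genes, 10.5% of the female-higher and 6.10% of the male-higher windows. Sequence identity between paralog promoters was set beside the sex differences for 7 pairs chosen after their values were seen. In a global alignment, Cyp3a16 and Cyp3a44 shared 284 of 300 bases with differences of 4.78 and 0.13, Cyp2d9 and Cyp2d10 shared 252 with −4.41 and −0.11, and Sult2a3 and Sult2a5 shared 245 with 4.96 and 2.46. Cyp3a16 shared 237 bases with Cyp3a11 (−0.05), Sult2a3 shared 225 with Sult2a4 (1.41), Cyp2d9 shared 173 with Cyp2d26 (0.15) and Slco1a1 (−4.42) shared 140 with Slco1a4 (1.20).

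The largest difference was in the hydroxysteroid sulfotransferases of the Sult2a family on chromosome 7, enzymes that add sulfate to steroids and bile acids. Sult2a2 read 8.72, 9.51 and 10.48 in females 1 to 3 and 3.25, 4.08 and 2.66 in males 1 to 3. Every female was far above every male, and all 3 male values were low. The difference was 6.24 ± 0.44 SE, or 75.5-fold, with an adjusted p of 4.25e-08 by limma. Sult2a1 read 6.96, 8.43 and 9.86 in females and 3.05, 2.69 and 2.27 in males, a 53.6-fold difference (5.74 ± 0.55 SE, adjusted p = 3.08e-06), and Sult2a3 was 31.1-fold higher in females (4.96 ± 0.48 SE, adjusted p = 3.08e-06). In both of these genes female 1 was the lowest of the females and still above the highest male.

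Sult2a5 was called (2.46 ± 0.50 SE, adjusted p = 0.0154), with female values of 3.70, 5.69 and 6.40 against 2.51, 3.11 and 2.80, and the call was lost without female 2, female 3, male 1 or male 3 (highest adjusted p = 0.105). Sult2a4 was 3.15, 5.47 and 5.13 in females and 3.41, 3.07 and 3.05 in males, so that female 1 lay among the males, and the difference of 1.41 had an adjusted p of 0.0735. Without female 1 it was 2.12 and called (adjusted p = 8.34e-06), and in the knockout animals it was 2.15 and called (adjusted p = 0.00425). Sult2a8, a bile acid sulfotransferase abundant in hepatocytes, pointed the other way at −0.96 ± 0.24 SE (adjusted p = 0.0518, not called, though called without female 1 or male 2), with all 3 females at 9.76 to 10.73 and all 3 males at 10.83 to 11.69. Members of this family are close copies, and probes may pick up a neighbour, so the values of single members are uncertain.

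On chromosome 10 both tested Sult3a genes, amine sulfotransferases, were higher in females. Sult3a1 read 8.17, 6.10 and 5.60 in females and 2.10, 2.19 and 2.30 in males (4.43 ± 0.47 SE, adjusted p = 1.04e-05), and Sult3a2 8.29, 5.03 and 4.16 against 2.59, 2.13 and 2.73 (3.34 ± 0.76 SE, adjusted p = 0.0306). Female 1, the lowest female for Sult2a1, Sult2a2 and Sult2a3, was the highest for both of these genes. The Sult3a2 call was lost in 5 of the 6 refits, all but the one without female 3, with an adjusted p of up to 0.101. Over all 16 autosomal sulfotransferases tested, 6 were called higher in females and 0 higher in males, with a median difference of 0.75. Without female 2, male 1 or male 3, 4 of the 16 were called. Sult1e1, which sulfates oestrogen, was low in every wild-type animal of both sexes (2.80 to 3.42).

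Among 58 cytochrome P450 enzymes, which hydroxylate steroids, fatty acids and drugs, 6 were higher in females and 3 in males, and the median difference was 0.01. Cyp3a16 read 6.23, 7.98 and 8.09 in females and 3.19, 2.35 and 2.44 in males, a 27.4-fold difference (4.78 ± 0.46 SE, adjusted p = 3.08e-06). The 6 other Cyp3a genes tested on chromosome 5 lay between −0.55 and 0.25 and were not called. Within the Cyp2c, Cyp2d and Cyp3a clusters, as in Sult2a, probes shared by paralogs were not examined, so values of single members are uncertain. Cyp3a41b read 11.80, 11.44 and 12.09 in females and 11.81, 11.98 and 11.57 in males, with overlapping ranges. The female-higher P450s on chromosome 19 were Cyp2c69 and Cyp2c40, out of 13 Cyp2c genes tested. Cyp2c69 read 10.15, 9.77 and 10.91 in females against 6.75, 6.77 and 6.78 in males (3.51 ± 0.33 SE, adjusted p = 2.62e-06). The males were nearly identical to each other for this gene and lay below every female. Cyp2c40, which acts on arachidonic acid, was 2.20 ± 0.47 SE higher (adjusted p = 0.0230), a call lost without female 1, female 3, male 1 or male 2. Cyp2c54 showed a difference of −1.09 ± 0.75 SE (adjusted p = 0.513).

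On chromosome 7, Cyp2a4, a steroid 15-alpha-hydroxylase, was 5.86-fold higher in females (2.55 ± 0.34 SE, adjusted p = 2.75e-04), with female values of 11.74, 11.35 and 11.73 and male values of 8.79, 9.37 and 9.01. The neighbouring Cyp2b13 was 9.46-fold higher (3.24 ± 0.57 SE, adjusted p = 0.00462), at 11.54, 11.18 and 11.51 against 8.32, 8.88 and 7.31. Male 2 was the highest male for both genes and remained below the females. Cyp2a22 was 1.69 ± 0.39 SE higher in females (adjusted p = 0.0316; lost in all refits but the one without male 2), and Cyp2a12 differed by −0.07. Cyp2b9 was high in both sexes (11.58 to 12.11 in females, 11.53 to 11.74 in males), with overlapping ranges and a difference of 0.28 ± 0.90 SE (adjusted p = 0.915).

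The male-higher P450s were Cyp2d9, Cyp4a12a and Cyp2u1. Cyp2d9, a testosterone 16-alpha-hydroxylase on chromosome 15, read 5.30, 4.54 and 5.79 in females and 9.56, 9.12 and 10.18 in males. No animal lay between the sexes, and the difference was −4.41 ± 0.32 SE, 21.3-fold (adjusted p = 6.58e-08). None of the 7 other Cyp2d genes tested was called (−0.63 to 0.31). Cyp2d10, for example, read 8.99, 8.58 and 8.53 in females and 8.86, 8.41 and 9.16 in males. Cyp4a12a, which makes the vasoactive lipid 20-HETE from arachidonic acid, read 3.50, 2.57 and 3.30 in females and 5.63, 6.73 and 7.80 in males, a 12.1-fold difference (−3.60 ± 0.39 SE, adjusted p = 1.44e-05). The other Cyp4a genes on chromosome 4 lay between −0.94 and 0.77 and were not called, though Cyp4a32 was without female 1 (−0.95, adjusted p = 0.0426). Cyp2u1, a fatty acid hydroxylase, was 4.03-fold higher in males (−2.01 ± 0.23 SE, adjusted p = 3.60e-05).

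**Figure D2:**
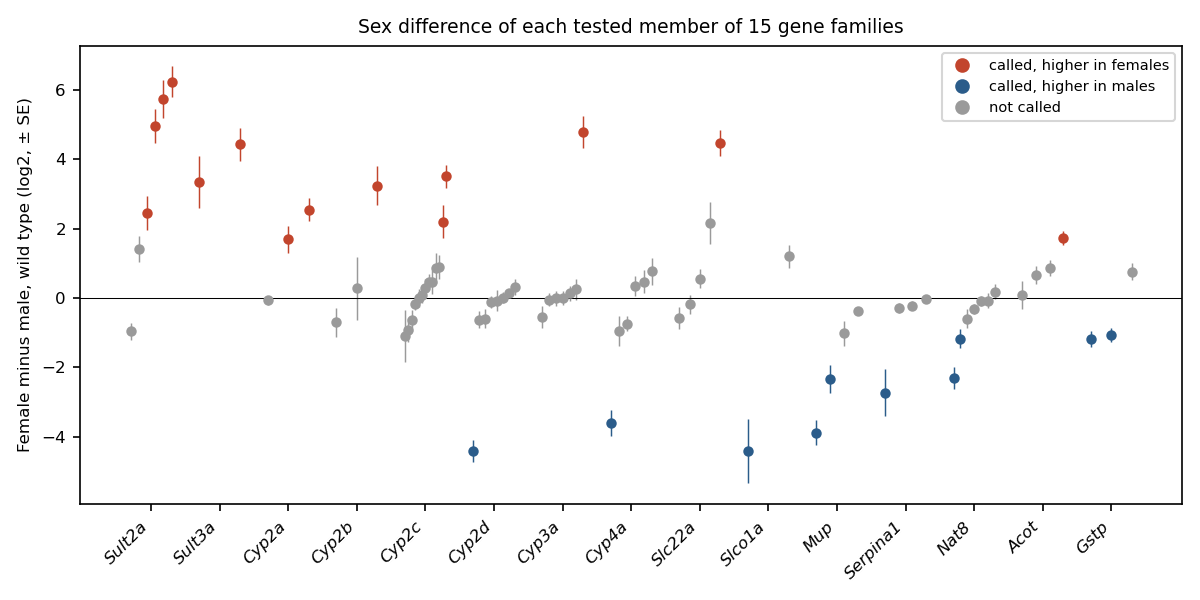
Female minus male difference in wild type (log2, y axis) of every tested member of 15 gene families (x axis), with bars of 1 SE from limma. Red and blue mark called genes. Cyp2d9 lies at −4.41 among Cyp2d genes that otherwise lie between −0.63 and 0.31, and only Sult2a has 4 called members.

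Of 7 flavin monooxygenases and aldehyde oxidases, Fmo2 was higher in females (1.21 ± 0.28 SE, adjusted p = 0.0317) and Fmo5 higher in males (−0.68 ± 0.13 SE, adjusted p = 0.00822). Fmo5 read 10.03, 10.16 and 10.35 in females and 10.70, 10.96 and 10.91 in males and stayed called in all 6 refits, but not with only the compared groups in the fit (adjusted p = 0.127) or with Batch1 arrays only (adjusted p = 0.0575). Fmo2 passed only without male 3. Of 23 glutathione S-transferases 1 was called, Gstp1, which was 2.27-fold higher in males (−1.18 ± 0.23 SE, adjusted p = 0.0137; lost without female 3, male 1 or male 2), at 10.80, 10.83 and 10.51 against 9.59, 9.68 and 9.32. Gstp-ps, a pseudogene of it, gave −1.06 ± 0.20 SE (adjusted p = 0.00995), and shared probes could tie the pair, while Gstp3 gave 0.75 and was not called. Of 13 carboxylesterases Ces3a, a lipid hydrolase, was higher in males (−0.64 ± 0.14 SE, adjusted p = 0.0256; called in 1 of the 6 refits, that without female 1). Among 14 UDP-glucuronosyltransferases 0 were called, 11 of the 14 differences were below 0 and the median was −0.36; Ugt2b1 gave −0.47 ± 0.12 SE (adjusted p = 0.0586, called without male 2).

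Of 21 steroid dehydrogenases and reductases 0 were called, with Hsd17b12 at −0.63 (adjusted p = 0.0885) and Hsd3b2 at −0.89 (adjusted p = 0.141). In the N-acetyltransferase 8 family on chromosome 6, Nat8, which acetylates cysteine conjugates, read 2.84, 3.34 and 3.51 in females and 5.94, 4.71 and 5.97 in males. It was 4.95-fold higher in males (−2.31 ± 0.32 SE, adjusted p = 4.27e-04), all 3 females being low. Nat8f5 was also called (−1.17 ± 0.28 SE, adjusted p = 0.0420; 1 of 6 refits, that without female 1) with a low signal in all 6 animals, and the 5 other members tested lay between −0.59 and 0.18. Hao2, a peroxisomal hydroxy acid oxidase, was 5.12-fold higher in females (2.36 ± 0.51 SE, adjusted p = 0.0246), at 7.57, 7.90 and 7.95 against 5.39, 5.57 and 5.40. The call for Hao2 held in the refit without female 1 and was lost in the other 5, while the ranges of the sexes did not overlap.

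In bile acid synthesis, Cyp7b1, the oxysterol 7-alpha-hydroxylase of the alternative pathway, read 8.25, 7.85 and 8.21 in females and 10.02, 9.37 and 10.23 in males, 3.42-fold higher in males (−1.77 ± 0.31 SE, adjusted p = 0.00430). Scp2, a peroxisomal thiolase that shortens the bile acid side chain, was 1.83-fold higher in males (−0.87 ± 0.11 SE, adjusted p = 6.53e-05), at 12.17, 12.14 and 12.28 against 11.51, 11.25 and 11.21. Cyp7b1 stayed called in all 6 refits. Klb, the co-receptor through which FGF15 restrains bile acid synthesis, was higher in females (0.70 ± 0.14 SE, adjusted p = 0.0177; lost without female 1, female 2, male 2 or male 3). The 18 other genes of 21 tested were not called, and the median was 0.03.

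Among lipid genes, Elovl3, which elongates saturated fatty acids to very long chains, read 5.85, 5.96 and 5.50 in females and 9.98, 9.64 and 10.00 in males. The difference was −4.10 ± 0.20 SE or 17.2-fold, with the smallest adjusted p of the autosomal genes tested (1.50e-10 by limma). Thrsp, a regulator of fatty acid synthesis, was 1.94-fold higher in males (−0.96 ± 0.22 SE, adjusted p = 0.0299). It was the 1 called gene whose ranges overlapped, at 10.54, 10.49 and 11.34 in females and 11.31, 11.91 and 12.04 in males, and its call was lost without female 1, female 2, male 2 or male 3. The other 37 of 39 listed lipogenesis and storage genes were not called and the median was −0.11. Outside the list, the lipid droplet genes Fitm1 (−1.35 ± 0.20 SE, adjusted p = 5.93e-04 by limma) and Ldah (−0.58 ± 0.13 SE, adjusted p = 0.0288) were called higher in males. Both were noted after their values were seen. In the knockout animals Fitm1 was called (−0.98) and Ldah was not (−0.16). Cidec, a lipid droplet protein named after its values were seen, read 6.02, 5.20 and 5.25 in females and 7.42, 9.28 and 8.10 in males without overlap, but its difference of −2.78 ± 0.73 SE had an adjusted p of 0.0660.

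Acot3, a peroxisomal acyl-CoA thioesterase, was 3.31-fold higher in females (1.73 ± 0.21 SE, adjusted p = 5.97e-05), with values of 9.17, 9.46 and 9.19 against 7.78, 7.21 and 7.65, while its neighbours Acot1, Acot2 and Acot4 on chromosome 12 gave 0.09, 0.66 and 0.87 and were not called. Acot4 was called without female 1 (1.15, adjusted p = 0.0211) and in the knockout animals (1.29, adjusted p = 0.00828). Vldlr, a receptor for triglyceride-rich lipoproteins, was 2.23-fold higher in females (1.15 ± 0.25 SE, adjusted p = 0.0256; lost without female 2 or any 1 of the males). These were the 2 called genes of 25 for fatty acid uptake and binding. Of 31 genes of fatty acid oxidation and ketone synthesis 0 were called, with a median of 0.09 and a range from −0.12 to 0.53.

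All 18 tested genes of cholesterol synthesis had a difference above 0, with a median of 0.47, but 0 passed the test. Lss, lanosterol synthase, read 6.62, 6.12 and 6.16 in females and 5.80, 5.75 and 5.09 in males (0.75 ± 0.27 SE, adjusted p = 0.189), and Tm7sf2, a sterol reductase, gave 0.63 ± 0.16 SE (adjusted p = 0.0588). The list median ranged from 0.27 without female 1 to 0.68 without male 2, and in the knockout animals it was 0.01 with 10 of 18 above 0. Without female 1, 14 of the 18 were above 0. Among 26 listed genes of glucose metabolism 0 were called, the smallest p values being those of Khk, fructokinase (−0.45, adjusted p = 0.151), and Pdk1 (0.42, adjusted p = 0.168). Pgam1, a glycolytic enzyme outside that list, was called higher in males (−1.71 ± 0.35 SE, adjusted p = 0.0179 by limma). Its mean was low in both sexes (2.50 in females, 4.21 in males). Of 42 genes of amino acid metabolism, Tdo2, which opens the tryptophan ring, was higher in males (−0.71 ± 0.15 SE, adjusted p = 0.0195; lost without female 2, male 2 or male 3) and Aldh4a1, of proline breakdown, higher in females (0.74 ± 0.18 SE, adjusted p = 0.0404; called only in the refit without female 1).

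**Figure D3:**
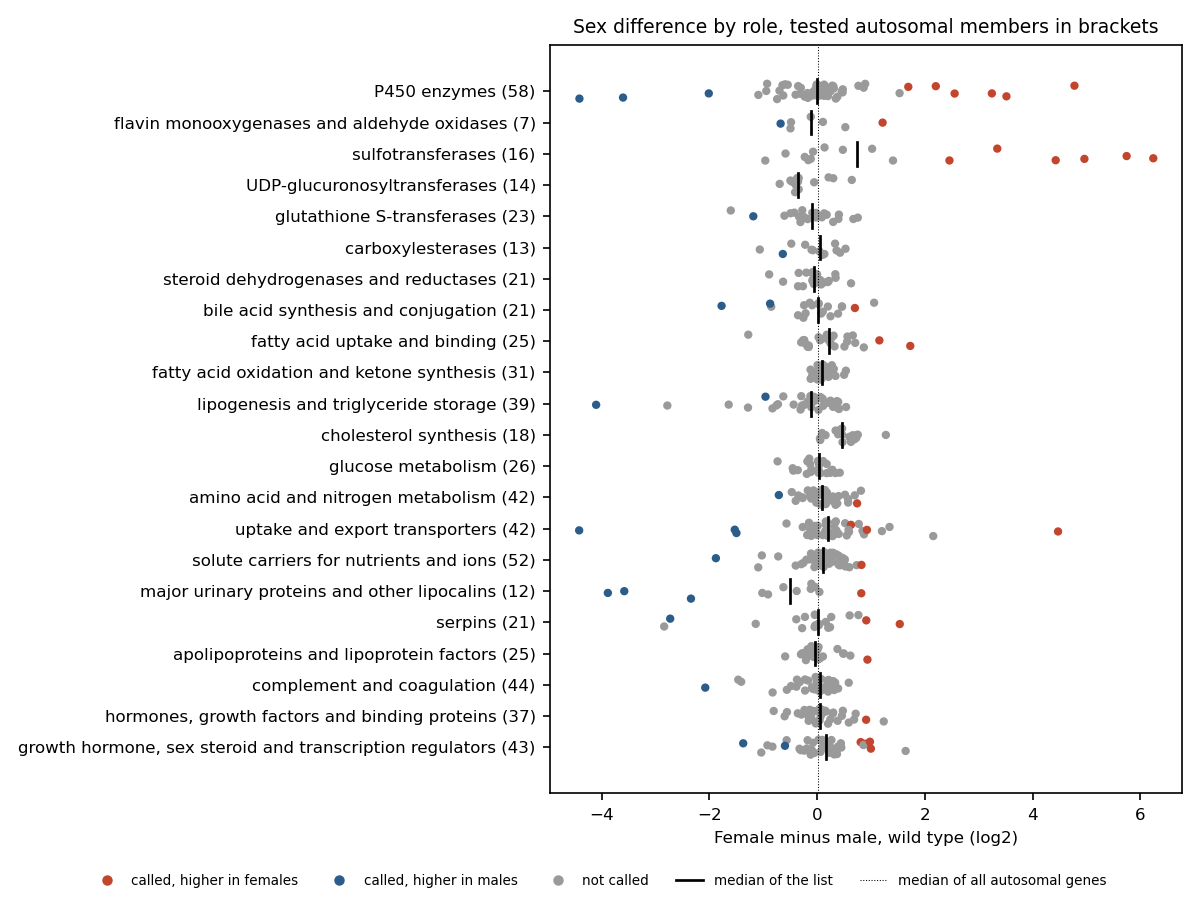
Female minus male difference in wild type (log2, x axis) of the tested autosomal genes of each role (y axis, number tested in brackets). Each point is a gene, coloured where called, black ticks are list medians and the dotted line is the median of all autosomal genes (0.02). Sulfotransferases and cholesterol synthesis have medians of 0.75 and 0.47, and called genes of both directions lie far out for P450 enzymes and transporters.

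Transporters changed in both directions. Slc22a26, an organic anion transporter on chromosome 19, read 9.86, 10.14 and 10.36 in females and 5.53, 5.21 and 6.21 in males. No animal lay between the sexes, and the gene was 22.2-fold higher in females (4.47 ± 0.38 SE, adjusted p = 4.99e-07). Its neighbour Slc22a27 gave 2.15 ± 0.61 SE (adjusted p = 0.0911, not called) although the ranges of 8.56 to 8.87 and 5.93 to 7.33 did not overlap, and Slc22a28, Slc22a29 and Slc22a30 gave −0.57, 0.55 and −0.18.

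Slco1a1, which takes up bile acids, steroid conjugates and other organic anions, read 5.13, 3.92 and 3.73 in females and 10.25, 6.20 and 9.59 in males. Male 2 lay nearer to female 1 than to either other male. The difference of −4.42 had an SE of 0.93 (adjusted p = 0.0199) and was called only without female 1 or male 2. A second array of male 1, hybridised in Batch2, read 10.35. Slco1a4, the next gene of that family on chromosome 6, was 10.15, 9.89 and 9.95 in females and 8.81, 8.87 and 8.70 in males, which is the opposite direction (1.20 ± 0.33 SE, adjusted p = 0.0862, not called).

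Abcg2, an efflux pump for drugs, urate and sulfated steroids, was 2.89-fold higher in males at 8.61, 8.67 and 8.63 against 7.03, 6.96 and 7.32 (−1.53 ± 0.17 SE, adjusted p = 2.68e-05) and stayed called in all 6 refits. Slc10a2, the bile acid carrier best known from ileum, was 2.82-fold higher in males (−1.50 ± 0.34 SE, adjusted p = 0.0325; called only without female 3). Slco2a1, a prostaglandin carrier, and Abcc6, an efflux pump, were higher in females (0.92 ± 0.21 SE, adjusted p = 0.0317, and 0.63 ± 0.15 SE, adjusted p = 0.0343), but Slco2a1 was called in 0 of the 6 refits and Abcc6 only without female 1. In all, 3 of 42 uptake and export transporters were higher in females and 3 in males, with a median of 0.21. Counted without female 2, male 1 or male 3, 2 of the 42 were called.

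Of 52 listed solute carriers for nutrients and ions, 1 was called in each direction. Outside the list, Slc23a2 was called higher in females (0.63), and Slc25a17 (−0.61), Slc33a1 (−0.76) and Slc35e3 (−1.38) higher in males. Slc15a5, of the peptide transporter family, read 3.89, 3.74 and 3.49 in females, all low, and 5.37, 5.62 and 5.76 in males (−1.88 ± 0.15 SE, adjusted p = 1.88e-07). Slc6a12, the betaine transporter, was 1.77-fold higher in females at 8.46, 8.55 and 8.61 against 7.65, 7.65 and 7.85 (0.82 ± 0.17 SE, adjusted p = 0.0205; lost without female 2, female 3, male 1 or male 2).

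Among secreted proteins the major urinary proteins and other lipocalins, carriers of small hydrophobic ligands, had a median of −0.50 over 12 genes, with 3 higher in males and 1 in females. Mup21 read 4.49, 3.22 and 4.03 in females and 7.96, 7.35 and 8.07 in males, 14.8-fold higher in males (−3.88 ± 0.36 SE, adjusted p = 2.49e-06), and Mup9 6.08, 4.63 and 6.52 against 8.39, 7.20 and 8.66 (−2.34 ± 0.41 SE, adjusted p = 0.00404; 0.122 with only the compared groups in the fit). Mup3 was near the top of the scale in all animals, 12.59 to 12.79 in females and 13.01 to 13.12 in males (−0.38 ± 0.10 SE, adjusted p = 0.0558). The Mup genes are near-identical copies on chromosome 4, so which copy each probe set reports is uncertain.

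Obp2a, an odorant-binding lipocalin, read 2.47, 2.69 and 2.46 in females and 6.85, 4.97 and 6.53 in males. It was 12.0-fold higher in males (−3.58 ± 0.80 SE, adjusted p = 0.0299), with the call kept only without male 2. Apom, the sphingosine-1-phosphate carrier on high-density lipoprotein, was higher in females by a small and even margin, 8.01, 8.02 and 8.04 against 7.22, 7.18 and 7.23 (0.82 ± 0.15 SE, adjusted p = 0.00480).

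A1bg, a plasma glycoprotein, read 6.96, 9.76 and 6.11 in females and 3.17, 3.24 and 2.92 in males, 22.6-fold higher in females (4.50 ± 0.58 SE, adjusted p = 1.65e-04). Female 2 was far above the other females, and without that animal the difference was 3.42 and still called. C6, a component of the terminal complement complex, read 7.13, 7.25 and 7.17 in females and 9.37, 9.11 and 9.30 in males (−2.08 ± 0.33 SE, adjusted p = 0.00157), and it was the only called gene of 44 for complement and coagulation.

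Serpina1e, an alpha-1-antitrypsin paralog, was 8.15, 6.97 and 7.40 in females and 10.78, 9.26 and 10.66 in males (−2.73 ± 0.67 SE, adjusted p = 0.0495; kept only without male 2). The sister genes Serpina1b, Serpina1c and Serpina1d on chromosome 12 lay within 0.28 of equality. Of 21 serpins, Serpinb1a (1.53 ± 0.37 SE, adjusted p = 0.0436; called in 0 of the 6 refits) and Serpinb8 (0.91 ± 0.20 SE, adjusted p = 0.0295; called only without female 2 or male 2), inhibitors that act inside cells, were higher in females. Agt, the precursor of angiotensin, was 1.88-fold higher in females (0.91 ± 0.18 SE, adjusted p = 0.0139; lost without female 2, male 1 or male 2), at 10.61, 11.04 and 10.88 against 9.93, 9.82 and 10.05. Angptl8, which restrains lipoprotein lipase, was 1.91-fold higher in females (0.93 ± 0.22 SE, adjusted p = 0.0427, called only without male 2). No other of the 25 genes listed as apolipoproteins and lipoprotein factors was called. The called genes Apom and Vldlr, described above, were counted in other lists.

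Of 43 genes listed as regulators of growth hormone, sex steroid and related transcription, 4 were higher in females and 2 in males, with a median of 0.17. The lowest of the list, at −1.37 and among the 2, was Nox4, the oxidase described below. Esr1, oestrogen receptor alpha, read 7.29, 7.64 and 7.61 in females and 6.40, 6.54 and 6.61 in males, 2.00-fold higher in females (1.00 ± 0.16 SE, adjusted p = 0.00137), and was called in all 6 refits. Cux2, a repressor of male-type genes, was 5.69, 6.26 and 5.86 against 4.89, 5.18 and 5.32 (0.81 ± 0.16 SE, adjusted p = 0.0158; lost without female 2 or male 1). Trim24, a nuclear receptor cofactor, and Nr1i3, the receptor CAR that drives P450 induction, were also higher in females (0.98 ± 0.20 SE, adjusted p = 0.0150, and 0.90 ± 0.19 SE, adjusted p = 0.0205). Without female 2 or male 1 neither was called; Trim24 was also lost without female 1, and Nr1i3 also without female 3 or male 2.

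Nox4, a hydrogen peroxide-producing oxidase, was 2.59-fold higher in males at 9.19, 8.79 and 9.15 against 7.52, 7.48 and 8.01 (−1.37 ± 0.21 SE, adjusted p = 0.00132), called in all 6 refits. Zfp809, which silences retroviral elements, was higher in males (−0.60 ± 0.14 SE, adjusted p = 0.0404; called only without female 1). Zfp979, another zinc-finger gene, gave −3.54 ± 0.55 SE (adjusted p = 0.00132) with all 3 females at 1.81 to 2.31, all low, and males at 5.27 to 5.84. Osteomodulin (Omd) was 3.07, 3.18 and 3.25 in females and 5.66, 5.87 and 6.72 in males (−2.92 ± 0.34 SE, adjusted p = 4.29e-05). Themis, known from thymocyte selection, was 6.48-fold higher in males (−2.70 ± 0.46 SE, adjusted p = 0.00331), while 11 tested lymphocyte markers had a median of −0.03 and 0 calls. The lectin Clec2h was higher in males (−2.06 ± 0.47 SE, adjusted p = 0.0319; called only without male 2), and the sialyltransferase St3gal6 was higher in females (1.96 ± 0.28 SE, adjusted p = 4.36e-04; called in all 6 refits).

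Genes already described in the literature as sex-biased in mouse liver, listed from general knowledge, were counted as well. These lists too were made with earlier results of these data known, so the counts are descriptive. Over all autosomal genes tested, 0.594% were called higher in males and 0.773% higher in females. Of 33 male-type genes tested, 14 were called higher in males and 0 in females, with a median of −0.97. Of 55 female-type genes, 20 were called higher in females and 1 higher in males, with a median of 0.77; the exception was Dpy19l3, at 4.83, 5.49 and 5.26 in females against 6.96, 6.90 and 6.85 in males (−1.71 ± 0.24 SE, adjusted p = 4.36e-04), and in the knockout animals it was −1.62. Several textbook genes of this kind were not called here. Hsd3b5 was low in every wild-type animal (1.94 to 3.22), and Selenbp2 read 7.07 to 7.86 in females and 7.20 to 7.42 in males. The fatty acid carrier Cd36 gave 0.27 ± 0.37 SE (adjusted p = 0.776), with 10.01, 9.97 and 10.01 in females and 9.48, 10.22 and 9.50 in males.

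The animals of a sex did not sit evenly within these differences. Female 2 was the female farthest from the males for 62 of the 104 female-higher genes (59.6%) and 41 of the 80 male-higher genes (51.2%). Over all autosomal genes tested, irrespective of a call, it was the highest female for 42.2%. It was the lowest female for 33.9%, the share to set beside the male-higher genes. Male 2 was the lowest male for 37 of the 80 male-higher genes (46.2%), among them Slco1a1, Obp2a, Serpina1e, Nat8, Mup9 and Cyp7b1. How often male 2 was the lowest male over all autosomal genes was not counted, so the 46.2% cannot be read as unusual. The median range over the 3 females was 0.38 for female-higher and 0.40 for male-higher genes, against 0.37 over all autosomal genes, and over the 3 males 0.37 and 0.37 against 0.34. The second array of male 1 differed from its first by a median of 0.216 over the called genes and 0.214 over all autosomal genes. For 171 of the 184 it lay outside the female range on the male side. The first array of the same male helped to choose these genes. That count therefore shows how the array repeats and is no test of the sex difference.

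**Figure D4:**
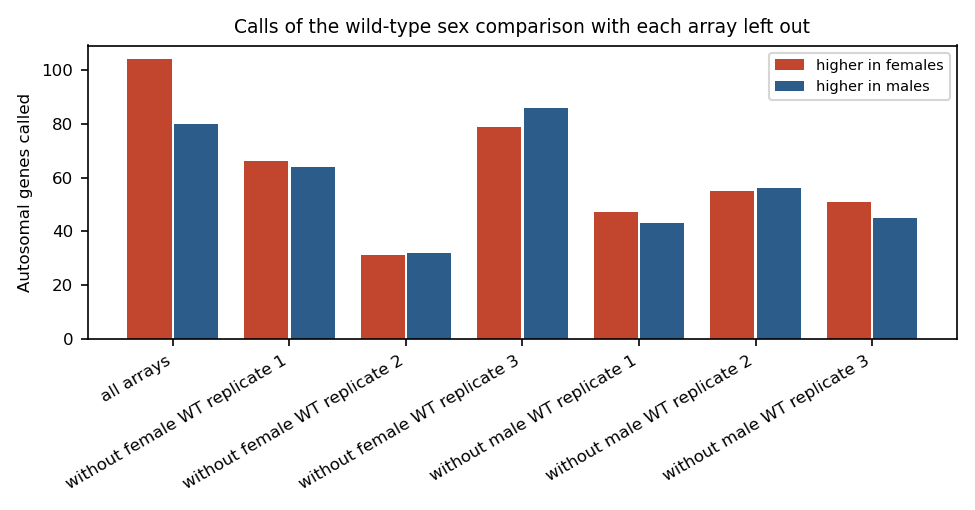
Number of autosomal genes called in the wild-type sex comparison (y axis) with all arrays and with each wild-type array left out (x axis), split by direction. Counts fall from 104 and 80 to 31 and 32 without female WT 2, and stay nearest to the full count without female WT 3 (79 and 86).

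In the knockout livers the same contrast was read in 6 other animals, which share no array with the wild-type contrast but share the pooled spread. There 142 autosomal genes were called (1.06%), 81 higher in females (0.602%) and 61 in males (0.453%). Of the wild-type calls, 101 of 104 female-higher and 78 of 80 male-higher genes had the same sign, 39 and 38 were called in the same direction, and 0 were called in the opposite one. These are 37.5% and 47.5% of the wild-type calls, and 48.1% and 62.3% of the knockout calls. The median difference of the female-higher genes was 0.83 in wild type and 0.56 in knockout, and that of the male-higher genes −1.08 and −0.83; the wild-type values were the ones that chose the genes.

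Many of the largest wild-type differences were also called in knockout animals. Sult2a2 read 10.42, 10.35 and 10.32 in knockout females and 3.06, 2.55 and 2.13 in knockout males (7.78), Cyp3a16 gave 6.24, Slc22a26 4.23, Cyp2c69 3.89, Cyp2d9 −3.58, Elovl3 −3.07 and Mup21 −3.14, all called. Slco1a1 gave −4.42 again, with males 1 to 3 at 6.94, 6.90 and 11.23. Male 3 was also the highest knockout male for Serpina1e (12.67 against 8.53 and 10.44), Selenbp2 (9.25 against 7.54 and 7.38) and Hsd3b5 (7.54 against 2.58 and 2.35), genes singled out after their values were seen. A1bg read 4.30, 6.05 and 4.51 in knockout females, each below every wild-type female, and its difference there was 1.91 (adjusted p = 0.158). Obp2a gave −1.91 (adjusted p = 0.361), with knockout male 1 at 2.67 among the females. Angptl8 was 0.93 in wild type and −0.30 in knockout.

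The test of the difference itself, wild-type minus knockout sex difference, called 0 of the 13458 autosomal genes by limma (0%), with 691 at an unadjusted p under 0.05 (5.13%) and a smallest adjusted p of 0.205. That smallest value belonged to C730027H18Rik, a gene of unassigned function, at −0.86 in wild type and −2.18 in knockout, and the gene was called without wild-type male 1 (adjusted p = 0.0270). Sult1e1 came next, with −0.08 in wild type and 2.77 in knockout, where females read 6.27, 7.19 and 5.70 and males 3.08, 4.85 and 2.93. All 3 knockout females were above all 3 wild-type females for this gene, and the difference of differences was −2.84 (adjusted p = 0.354). It was called without knockout male 2 (−3.46, adjusted p = 0.00139), as was 2810039B14Rik (adjusted p = 0.0265), and without knockout male 1 Gm16174 and the hepcidin gene Hamp were called (adjusted p = 0.0435 and 0.00104). Gm11189, Trav12-2 and Olfr978 followed with −1.22, 1.11 and −0.90, each at an adjusted p of 0.933. Of the 184 wild-type calls, 46 had an unadjusted p under 0.05 in this test. The wild-type sex difference chose these genes and is also part of the test, so their count cannot be set against the 5.13%.

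**Figure D5:**
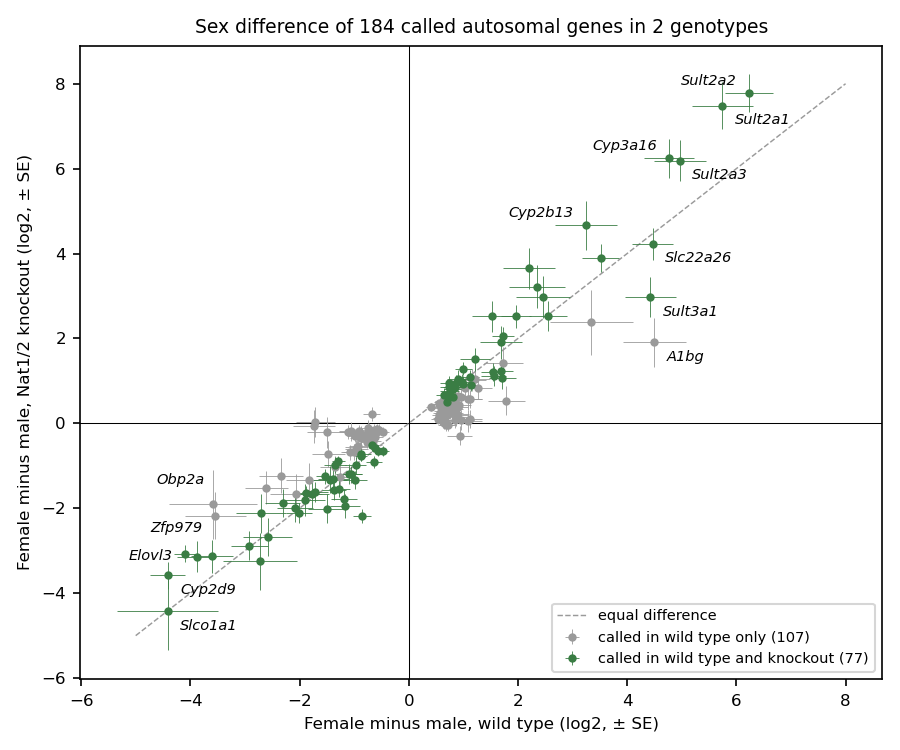
Female minus male difference (log2, ± 1 SE from limma) in wild type (x axis) and Nat1/2 knockout (y axis) for the 184 genes called in wild type. Green points (77) are called in both genotypes and grey points (107) in wild type only; 179 of the 184 have the same sign, and A1bg lies below the dashed line of equal differences.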

How the data were processed

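Liver RNA was hybridised to 22 expression arrays, 1 or 2 per animal. The deposited table holds log2 values that the authors made with RMA (affy 1.48.0, R 3.4.3), per the submitters' processing notes; RMA corrects background, makes the arrays' distributions equal and summarises probes, so a change shared by most genes would be removed. The genome build was not given in the sources used here. Of 25428 probe sets, 24705 had 1 gene symbol in the platform annotation, 0 several and 723 none, and 24673 were matched to the GRCm38.p6 gene table for chromosomes.

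Genes above the table median (4.57) on at least 3 of the 22 arrays were tested, giving 13871 genes: 13458 autosomal, 391 on X, 6 on Y and 16 without a chromosome. Values were not transformed again. limma 3.58.1 (lmFit, eBayes, R 4.3.3) fitted 6 group means to 20 arrays, 1 per animal, with Benjamini-Hochberg adjustment over all 13871 genes and a threshold of 0.05. Nothing in the labels names litters or extraction days, so p-values measure only the spread between animals, pooled over all 6 groups. A gene even within both wild-type sexes can thus have a large SE. Standard deviations in wild-type females, wild-type males and knockout males were 0.21, 0.10 and 1.49 for Hao2. For Slco1a4 they were 0.13, 0.08 and 0.78. In an exact permutation test 3 against 3 cannot go below p = 0.1. The number of arrays limits the precision.

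Genes named are the called autosomal genes with the largest differences (at most 15 per direction, predicted genes left out), at most 5 called members per direction of each role list or the 2 with the smallest p where none was called, the 5 with the smallest p for the genotype difference, and other members of the paralog clusters. The comparison, its gene lists and its tests were chosen with earlier results of these data known. Role lists do not hold every gene of a role, so their counts stand for the listed genes only. The fit was tested on simulated data. Alternatives changed the low-signal filter, the samples in the fit, the normalisation, the repeats, the variance model and a replicate block, and left out each animal. Genes on X and Y were left out of all counts. Replicate numbers in the labels were not taken as pairs, after the correlation of same-numbered animals was read. So few correlations cannot settle whether the animals were paired.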

Additional observations from a re-analysis of the deposited data

Results flagged for a closer look

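For 3 of the named genes the ranges of the sexes were separate in both genotypes and pointed in opposite directions. That is why they are listed. Gm11189 and Olfr978 had been named for small p values in the limma test of the genotype difference, a choice that favours opposite directions. Cyp2b10 had been named as a member of the Cyp2b cluster. Their number is therefore no result about the named genes. Among all 13458 autosomal genes tested, ranges were separate for 1500 female-higher and 1073 male-higher genes in wild type. In knockout they were separate for 1208 and 925. How many of these pointed in opposite directions was not counted. The sex difference in wild type minus that in knockout was −1.22 for Gm11189, −0.90 for Olfr978 and −1.26 for Cyp2b10. None passed the limma test of that difference, the adjusted p being 0.933 for each.

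Gm11189, a predicted gene, read 6.10, 5.64 and 6.24 in wild-type females and 6.30, 6.53 and 6.78 in wild-type males (−0.54), and 6.31, 6.24 and 6.38 in knockout females and 5.71, 6.03 and 5.16 in knockout males (0.68). Olfr978, an olfactory receptor gene, read 4.67, 4.89 and 5.04 against 5.69, 5.67 and 5.26 in wild type (−0.67) and 5.26, 5.49 and 5.20 against 5.09, 5.05 and 5.13 in knockout (0.22). Cyp2b10, the P450 best known as a target of the receptor CAR, read 4.92, 4.67 and 4.91 against 5.69, 5.88 and 5.03 in wild type (−0.70) and 5.03, 4.77 and 5.25 against 4.33, 4.29 and 4.76 in knockout (0.56).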

How the results depend on the processing

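The wild-type count of 184 (104 higher in females, 80 in males) fell to 96 (47, 49) with only the groups compared in the fit, to 83 (41, 42) with Batch1 arrays only and to 93 (42, 51) with the replicate block, and lay between 63 and 165 with 1 animal left out (31 to 79, 32 to 86), lowest without female WT 2. Of the 184, 75, 77 and 73 were among the calls of the first 3 settings. The knockout count of 142 (81, 61) became 48 (30, 18) with only the groups compared, 41 (23, 18) with the replicate block and 75 to 153 with 1 animal left out (41 to 79, 34 to 74). The difference of sex differences had 0 calls, 1 with the replicate block (Sult1e1, adjusted p = 0.0134 by limma) and 0 to 2 with 1 animal left out, among them Sult1e1 without knockout male 2 (adjusted p = 0.00139). In the other settings the counts moved by less than 1.5 times (138 to 204 in wild type). Same-numbered females and males of a genotype had deviations that correlated at 0.01, 0.07 and 0.15 in wild type and −0.08, −0.10 and −0.12 in knockout. For different numbers the correlations ran from −0.10 to 0.03 in wild type and from 8.35e-05 to 0.08 in knockout. The numbers were not taken as pairs, though so few correlations cannot settle it. Of 64 named called genes, 31 stayed called with each wild-type animal left out and 27 in every setting that kept them, of which 8 fell outside the stricter low-signal filter (A1bg, Cyp3a16, Sult2a1, Sult2a2, Sult2a3, Sult3a1, Themis and Zfp979). No named called gene changed direction. Under the replicate block the calls of Apom (adjusted p = 0.0769), Scp2 (0.0858) and Fmo5 (0.150) were among those lost by limma. Also lost there were Abcc6, Agt, Aldh4a1, Angptl8, C730027H18Rik, Ces3a, Clec2h, Cux2, Klb and Nat8f5. Nr1i3, Olfr978, Serpinb8, Slc6a12, Sult2a5, Sult3a2, Tdo2, Thrsp, Trim24 and Zfp809 were lost as well.

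Signals under the table median limit the folds of 34 called genes.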
